A study of Mus musculus with 18 samples.

Results

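Hedgehog receptors and Gli factors are taken here as the 9 genes Ptch1, Boc, Cdon, Gas1, Smo, Sufu, Gli1, Gli2 and Gli3. They were found by name in 4 tables of gene expression from newborn mouse brain, using the entry with the highest mean where a name occurred more than once. All 9 were listed in every table, among 23138 named genes in the hippocampal table, 23398 in the neurosphere table and 54429 in each of the others. RNA-seq was done on postnatal day 0 hippocampi (3 control and 3 cKO libraries) and on neurospheres grown from such hippocampi (2 and 2). It was also done on postnatal day 0 cortices (2 and 2) and on postnatal day 0 hippocampi of a second mutant (2 and 2). Controls of the first 3 sets carried Kdm2b fl/+ or Kdm2b fl/fl, which the labels do not tell apart, and cKO samples were Kdm2b Emx1-delta-CxxC. In these mice Emx1-Cre, active in progenitors of the dorsal telencephalon, removes the exon for the CxxC zinc finger of KDM2B, and the rest of the transcript remains. The second mutant was Rnf2 Emx1-cKO, with Rnf2 fl/+ or Rnf2 fl/fl controls. RNF2 is the ubiquitin ligase of Polycomb repressive complex 1, the complex that KDM2B brings to CpG-rich DNA. Cells outside the Emx1 lineage, such as interneurons, microglia and vessel cells, keep the intact allele in all cKO tissues. The neurospheres were cultured for 3 generations before sequencing, so they differ from the tissues in time as well. Their medium held FGF2 and EGF, factors that select for dividing progenitors. Nothing in the labels says that replicates came from separate animals, so p-values measure only the spread between these samples, which may be technical.

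Hedgehog signaling starts when a secreted ligand such as SHH binds PTCH1, a membrane protein that otherwise holds SMO inactive. BOC, CDON and GAS1 are co-receptors that help PTCH1 to bind the ligand. Active SMO in the primary cilium releases GLI proteins from SUFU. GLI2 and GLI3 are the primary effectors, GLI3 acts mostly as a repressor when no ligand is present, and Gli1 and Ptch1 are themselves transcribed in response to the signal. In the dorsal forebrain GLI3 is needed to form the cortical hem and the hippocampus, and SHH maintains dentate progenitors.

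Expression values are FPKM, fragment counts scaled to the length of the gene and to the mapped fragments of the library. Differences are means of log2(FPKM + 1) in cKO minus control, a scale that understates changes of low genes. A gene is called higher or lower where this difference is above 0.4 in size with an unadjusted limma p under 0.05, among genes that average 0.5 FPKM or more over the libraries of the table. Adjusted p-values are Benjamini-Hochberg values over all genes tested in a table. The 4 tables were normalized separately, so levels in different tables are set side by side without a test.

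Libraries of a group correlated at 0.968 to 0.992 over genes, and control with cKO libraries of a table at 0.951 to 0.987. In the Rnf2 series these ranges overlapped, at 0.968 to 0.979 within groups and 0.966 to 0.974 between them. Hippocampal identity was checked with 6 field markers. Zbtb20 averaged 42.9 FPKM and Prox1 34.3 FPKM in control hippocampi, against 5.32 and 1.19 FPKM in control cortices. Summed over the 6, levels were 247 to 263 FPKM in control hippocampi and 106 to 107 FPKM in control cortices. Controls of the Rnf2 series had 129 to 162 FPKM. The tables also differ in scale, with FPKM totals of 369594 to 383249 in control hippocampi and 261406 to 275918 in control cortices. Control neurospheres held the progenitor genes Sox2 (243 FPKM) and Vim (1255 FPKM) but also Olig1 (1740 FPKM) and Olig2 (502 FPKM), markers of the oligodendrocyte lineage, while the neuronal gene Neurod6 was at 0.0541 FPKM. Control library 1 of the neurospheres had an FPKM total of 855276, against 452580 to 522964 in the other 3, and 29.3% of it lay on entries without a gene name. Kdm2b, measured over the whole gene, averaged 29.4 FPKM in control and 27.2 FPKM in cKO hippocampi, which does not test the deletion of a single exon. Rnf2 averaged 31.5 ± 1.02 FPKM in controls and 28.1 ± 0.494 FPKM in Rnf2 cKO hippocampi (SD, n = 2 each), with no overlap and an adjusted p of 0.762. In these bulk samples, fewer cells of a type and less RNA per cell cannot be told apart.

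The CxxC finger is known to bind unmethylated CpG, so the CpG content of the promoters was read from RefSeq sequences of GRCm38.p6. The table used held 7 of the 9 genes, without Gli1 and Boc. The 250 bases before the start held 41 CpG in Ptch1, 34 in Gli3, 22 in Gli2, 15 in Smo, 10 in Gas1, 8 in Sufu and 1 in Cdon, against a median of 6 over 27025 promoters. Thus 6 of the 7 stood above the median of all promoters. The first start listed for each gene was used. The Gli3, Cdon and Ptch1 stretches lie inside the gene as the cortical table bounds it, since the RefSeq starts lie downstream. For Cdon this is chr9:35451826-35452075, in a gene bounded from 35421128, so its count does not describe a promoter at that outer start. All 250 bases of the Gli3 and Gas1 stretches overlap annotated exons. The Gli consensus GACCACCCA, searched on both strands (TGGGTGGTC on the other), was found in none of the 7 stretches of 300 bases and in 0.244% of all promoters. The stretches of 4 genes without annotated exon sequence are shown, those of Smo and Sufu, whose transcripts differed in cKO hippocampi at an adjusted p under 0.05, and those of Ptch1 and Gli2, whose transcripts did not. Every CpG is in capitals.
Smo, chr6:29735247-29735496, plus strand: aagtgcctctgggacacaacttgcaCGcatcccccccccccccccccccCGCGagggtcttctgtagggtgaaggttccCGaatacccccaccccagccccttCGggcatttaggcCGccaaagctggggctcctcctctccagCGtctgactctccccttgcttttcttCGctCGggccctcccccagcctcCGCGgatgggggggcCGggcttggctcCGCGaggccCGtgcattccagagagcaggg
Sufu, chr19:46396646-46396895, plus strand: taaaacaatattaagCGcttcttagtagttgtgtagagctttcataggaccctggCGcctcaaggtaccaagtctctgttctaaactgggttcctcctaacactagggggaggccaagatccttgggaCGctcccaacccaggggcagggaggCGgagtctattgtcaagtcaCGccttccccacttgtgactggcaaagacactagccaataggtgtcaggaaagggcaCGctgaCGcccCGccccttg
Ptch1, chr13:63565736-63565985, minus strand: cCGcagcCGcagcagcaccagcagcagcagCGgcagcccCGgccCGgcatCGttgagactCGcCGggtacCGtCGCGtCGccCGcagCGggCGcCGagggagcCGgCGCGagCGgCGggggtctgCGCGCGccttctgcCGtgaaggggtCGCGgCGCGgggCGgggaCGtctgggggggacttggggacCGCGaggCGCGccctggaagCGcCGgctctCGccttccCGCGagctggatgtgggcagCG
Gli2, chr1:119053620-119053869, minus strand: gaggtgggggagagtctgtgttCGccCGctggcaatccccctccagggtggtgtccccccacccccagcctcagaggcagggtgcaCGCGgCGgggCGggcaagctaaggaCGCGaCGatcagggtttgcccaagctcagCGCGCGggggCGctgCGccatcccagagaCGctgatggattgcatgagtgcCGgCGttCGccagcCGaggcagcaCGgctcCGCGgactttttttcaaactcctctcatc
No relation between CpG content and the change in expression was tested.

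In control hippocampi the 9 genes spanned from 20.0 ± 1.07 FPKM for Gas1 to 1.56 ± 0.291 FPKM for Boc (SD, n = 3). Between them came Smo, Sufu, Cdon, Ptch1, Gli3, Gli1 and Gli2 in falling order of the mean. Sufu and Cdon overlapped in their libraries, as did Gli1 and Gli2. In control neurospheres the order was Gas1, Ptch1, Smo, Cdon, Sufu, Boc, Gli2, Gli3 and Gli1, with no overlap between neighbours. Gas1 (65.9 ± 4.52 FPKM) and Ptch1 (29.8 ± 0.668 FPKM) led there, and Gli1 was close to absent at 0.0251 ± 0.00366 FPKM (SD, n = 2). In control cortices Cdon (20.8 ± 4.24 FPKM) and Gas1 (18.7 ± 2.87 FPKM) overlapped at the top, and Boc followed at 11.5 ± 1.64 FPKM. The cortical order ended with Smo, Sufu, Gli3, Gli2, Ptch1 and Gli1, and only Gli3 and Gli2 of these overlapped as neighbours. Controls of the Rnf2 series ran from Gas1 (17.8 ± 3.40 FPKM) through Smo, Cdon, Sufu, Gli3, Ptch1, Boc and Gli2 to Gli1 (1.54 ± 0.551 FPKM). There Sufu overlapped Gli3, and Gli2 overlapped Gli1.

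**Figure D1:**
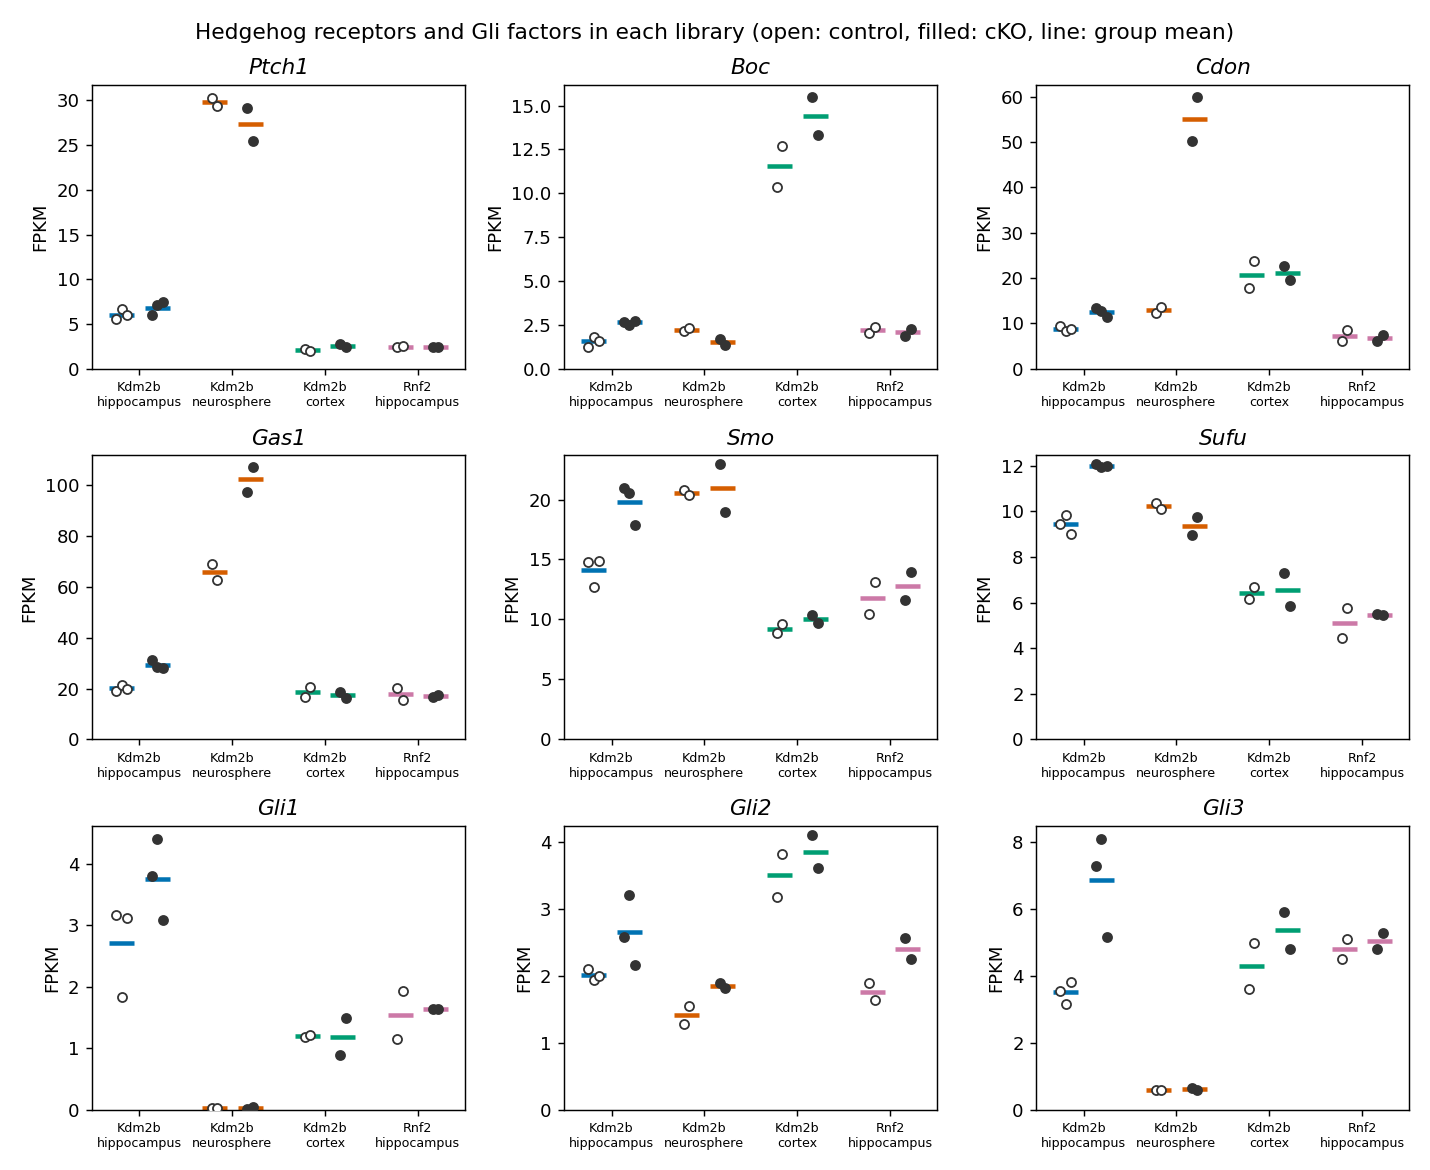
FPKM of each gene (vertical axis, from 0) in every library of the 4 tables (horizontal axis). Open points are controls, filled points cKO and lines group means. Gli3, Boc, Smo, Cdon, Gas1, Sufu and Gli2 separate the groups in Kdm2b hippocampi, Cdon rises from 12.9 to 55.1 FPKM in neurospheres, and Gli1 lies near 0 there.

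In Kdm2b cKO hippocampi, 5 of the 9 genes were higher and none was lower: the effector Gli3, the co-receptors Gas1, Boc and Cdon, and the transducer Smo. All 5 also had an adjusted p under 0.05. Over all 13446 genes tested, 6.14% were called (523 higher and 303 lower), and 4.41% were called with the adjusted p. The 9 differences were all positive with a median of 0.46, against a median of 0.01 over all genes. In 7 of the 9 every cKO library lay above every control, while 29.2% of all genes had groups that did not overlap in either direction.

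Among the receptors, Ptch1, the ligand receptor and a transcriptional target, measured 5.61, 6.62 and 5.96 FPKM in controls and 5.98, 7.11 and 7.42 FPKM in cKO hippocampi. The groups overlapped, with a difference of 0.15 (95% interval -0.08 to 0.37, adjusted p = 0.419). Boc measured 1.25, 1.82 and 1.60 FPKM in controls and 2.69, 2.52 and 2.73 FPKM in cKO. All cKO libraries stood above the controls, and the mean was 1.70-fold higher (log2 difference 0.52, SE 0.11, adjusted p = 0.0277). Cdon, related to Boc in structure, measured 9.40, 8.32 and 8.82 FPKM in controls and 13.5, 12.7 and 11.4 FPKM in cKO. It rose 1.42-fold without overlap (log2 difference 0.46, SE 0.08, adjusted p = 0.0118). Gas1, a membrane-anchored co-receptor, measured 19.2, 21.2 and 19.6 FPKM in controls and 31.1, 28.6 and 28.1 FPKM in cKO. Its rise of 1.46-fold (log2 difference 0.53, SE 0.06, adjusted p = 0.00281) had the smallest p of the 9.

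Smo, the membrane protein that passes the signal on, measured 14.8, 12.7 and 14.9 FPKM in controls and 21.0, 20.6 and 17.9 FPKM in cKO hippocampi. The groups did not overlap, and the rise was 1.40-fold (log2 difference 0.46, SE 0.08, adjusted p = 0.0131). Without control library 2 the difference was 0.39, under the fold threshold. Sufu, which restrains GLI proteins, measured 9.46, 9.86 and 9.02 FPKM in controls and 12.1, 11.9 and 11.995 FPKM in cKO. It was 27.0% higher in the mean without overlap (log2 difference 0.32, SE 0.06, adjusted p = 0.0204), and its difference stayed under the fold threshold.

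Gli3 measured 3.55, 3.17 and 3.80 FPKM in controls and 7.28, 8.09 and 5.17 FPKM in cKO hippocampi. Every cKO library was above the highest control, and the 1.95-fold rise was the largest of the 9 (log2 difference 0.78, SE 0.14, adjusted p = 0.0132). Gli2 measured 2.10, 1.94 and 2.004 FPKM in controls and 2.59, 3.21 and 2.16 FPKM in cKO. The groups did not overlap, but the difference of 0.27 (95% interval -0.01 to 0.54) had an adjusted p of 0.230. Gli1, the target and amplifier of the signal, measured 3.17, 1.83 and 3.12 FPKM in controls and 3.79, 4.39 and 3.08 FPKM in cKO. Its groups overlapped, with a difference of 0.37 (95% interval -0.01 to 0.75, adjusted p = 0.225). Gli1 passed both thresholds when control library 1, control library 3 or cKO library 3 was left out, at 0.47, 0.46 and 0.48.

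**Figure D2:**
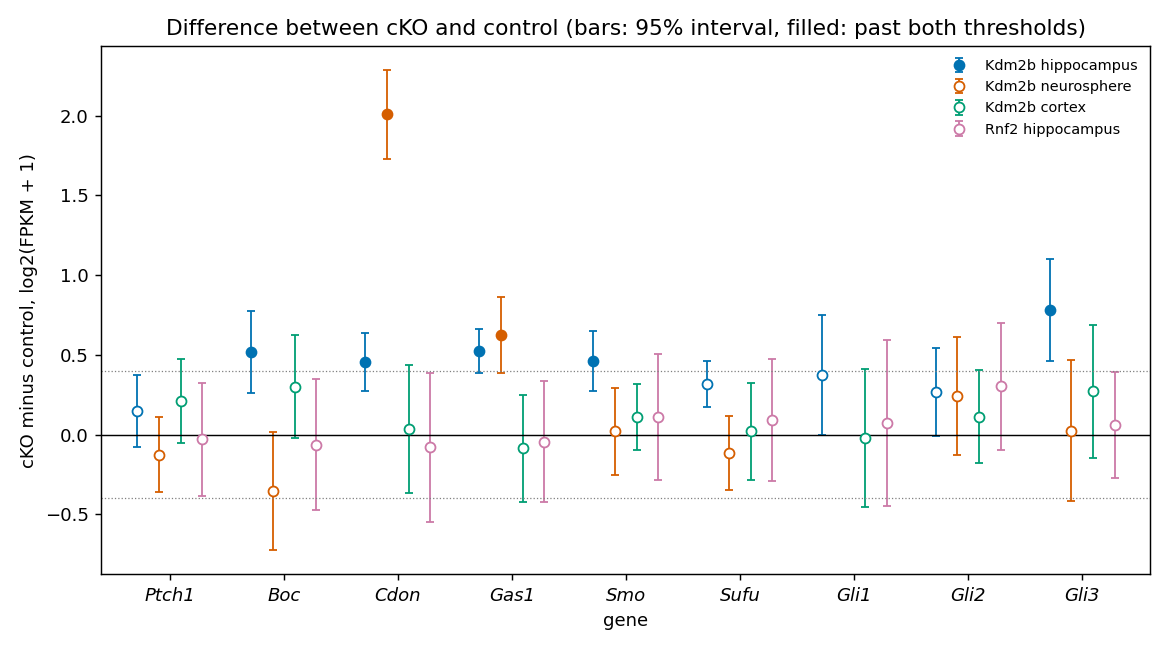
Difference between cKO and control on the log2(FPKM + 1) scale (vertical axis) for the 9 genes (horizontal axis) in the 4 comparisons. Bars are 95% intervals, dotted lines the 0.4 threshold and filled points genes past both thresholds. Hippocampi have 5 filled points between 0.46 and 0.78, neurospheres have Cdon at 2.01 and Gas1 at 0.63, and the other comparisons have none.

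Progenitor genes moved in the same hippocampi. Of 8 markers of radial glia, the neural stem cells of the developing brain, 3 were higher (Pax6, Nes and Vim) and none was lower, and 7 did not overlap between groups. Their summed level was 1163 to 1250 FPKM in controls and 1201 to 1325 FPKM in cKO. Of the 3 markers of intermediate progenitors tested, 2 were higher, Eomes from 14.8 to 34.2 FPKM and Neurog2 from 9.54 to 27.2 FPKM. Of 6 excitatory neuron markers, Slc17a7, a vesicular glutamate transporter, was lower, from 85.3 to 56.8 FPKM (adjusted p = 0.0286), and the summed level was 1427 to 1480 FPKM in controls and 1063 to 1377 FPKM in cKO. Summed oligodendrocyte markers, none of the 6 called, were 63.3 to 64.6 FPKM in controls and 53.4 to 56.7 FPKM in cKO. Of 6 astrocyte markers, 3 were lower, among them S100b, which in cKO was under the filter level at 0.453 FPKM, and of the thalamic and microglial lists 2 markers each were higher. Summed microglial markers were 26.9 to 31.1 FPKM in controls and 33.6 to 43.8 FPKM in cKO, and summed thalamic markers 37.6 to 41.3 and 50.4 to 54.6 FPKM. The part of these cell types in the rise of Gli3, Smo and the co-receptors was not tested. Meningeal (8) and vessel (6) markers had no call. Of the 3 choroid plexus markers tested, 2 were higher, none with an adjusted p under 0.05. Summed choroid plexus markers ranged from 5.46 to 16.5 FPKM in controls and from 6.83 to 59.8 FPKM in cKO.

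Other Hedgehog pathway genes were counted from lists of 38, chosen, like the receptors and Gli factors, with earlier results of these data known. In hippocampi 34 were tested, 4 were higher and none was lower, with a median difference of -0.01, against 6.14% called over all genes. Scube1, a secreted protein that helps to release the ligand, measured 2.36 ± 0.160 FPKM in controls and 4.21 ± 1.10 FPKM in cKO (adjusted p = 0.0365). Evc (log2 difference 0.53, adjusted p = 0.0115) and Evc2 (0.44, adjusted p = 0.0273), partners of SMO at the base of the cilium, were the only 2 of 13 cytoplasmic regulators called. Bcl2, a survival gene, passed the thresholds at 0.40, with an adjusted p of 0.0902. Under the fold threshold, Disp2, related to the ligand transporter Disp1, was lower by log2 -0.32 (adjusted p = 0.0129), and Kif7, a ciliary kinesin that regulates GLI proteins, differed by 0.33 (adjusted p = 0.0638). Of the 6 cilium trafficking genes none was called, with differences from -0.11 to 0.12. The lowest was that of Ift172, whose hippocampal entry is joined with Fndc4. Shh averaged 0.235 ± 0.0966 FPKM in controls and 0.297 ± 0.105 FPKM in cKO, and Ihh and Dhh were also under the filter. The Hedgehog binding proteins Hhip, Lrp2 and Gpc3 differed by -0.01 to 0.19 and were not called.

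In neurospheres 8 of the 9 genes passed the filter, and 2 were higher, the co-receptors Cdon and Gas1. None was lower. Both calls held at the adjusted p. Over all 12227 genes tested, 24.6% were called (1392 higher and 1620 lower), or 19.3% with the adjusted p, so 2 of 8 is close to the share over all genes. Rescaling the libraries to the same FPKM total, summed over named genes only, changed the split over all genes to 1256 higher and 830 lower. It moved the median of all genes from -0.01 to 0.09. Cdon and Gas1 were called under that scaling too, Gas1 with an adjusted p of 0.105.

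Cdon measured 12.2 and 13.6 FPKM in control neurospheres and 50.3 and 59.9 FPKM in cKO, a 4.27-fold rise (log2 difference 2.01, SE 0.11, adjusted p = 0.00110). Gas1 measured 69.1 and 62.7 FPKM in controls and 97.5 and 107 FPKM in cKO, a 1.55-fold rise (log2 difference 0.63, SE 0.10, adjusted p = 0.00919). For both genes all cKO libraries lay above the controls. Boc went the other way, at 2.16 and 2.32 FPKM in controls and 1.70 and 1.37 FPKM in cKO. This difference of -0.35 (95% interval -0.73 to 0.02, adjusted p = 0.144) was not called, although it passed both thresholds at -0.45 without cKO library 1, in a fit that assumes the lone cKO library to vary like the controls. Ptch1 measured 30.3 and 29.4 FPKM in controls and 29.2 and 25.4 FPKM in cKO, a difference of -0.13 (95% interval -0.36 to 0.11).

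Smo measured 20.8 and 20.4 FPKM in control neurospheres and 23.0 and 19.0 FPKM in cKO, so the controls lay within the cKO range. Sufu measured 10.4 and 10.1 FPKM in controls and 8.98 and 9.77 FPKM in cKO, a difference of -0.12 (95% interval -0.35 to 0.12). Gli2 measured 1.29 and 1.55 FPKM in controls and 1.89 and 1.82 FPKM in cKO, a difference of 0.24 (95% interval -0.13 to 0.61). Gli3 was low in all 4 libraries, at 0.588 and 0.598 FPKM in controls and 0.644 and 0.599 FPKM in cKO, a difference of 0.03 (95% interval -0.42 to 0.47). Gli1 was under the filter at 0.0225 and 0.0276 FPKM in controls and 0.0175 and 0.0429 FPKM in cKO. Of the 8 genes tested 7 did not overlap between groups, 4 above and 3 below, while 66.4% of all genes did not.

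Of the other pathway genes, 32 were tested in neurospheres, 3 were higher and 2 were lower, against 24.6% called over all genes. The ligand Dhh, counted among the higher genes, averaged 0.469 ± 0.215 FPKM in controls and 1.89 ± 0.0744 FPKM in cKO, and it passed the filter only through its cKO libraries. Ccnd1, a cyclin of the cell cycle, rose from 311 ± 18.1 to 664 ± 51.7 FPKM, and Mycn, a growth-promoting transcription factor, from 1.07 ± 0.264 to 4.14 ± 0.611 FPKM. Nkx2-2, a ventral patterning factor also made in the oligodendrocyte lineage, fell from 26.2 ± 2.85 to 9.17 ± 0.912 FPKM. The ciliary motor gene Kif3a fell from 38.0 ± 1.19 to 27.3 ± 1.15 FPKM. In neurospheres the entries of Nkx2-2 and Ccnd1 are joined with Nkx2-2os and Mir3962. The calls on Ccnd1, Mycn, Nkx2-2 and Kif3a held at the adjusted p (SD, n = 2 per group). That on Dhh is not counted with them only because of how it passed the filter. Shh, under the filter in the tissue tables, averaged 4.15 ± 0.778 FPKM in control and 4.97 ± 0.175 FPKM in cKO neurospheres (adjusted p = 0.303). Marker lists moved as well. All 6 astrocyte markers were lower (summed level 348 to 430 FPKM in controls and 36.1 to 41.5 FPKM in cKO), as were 4 of 6 oligodendrocyte markers, among them Gpr17, from 99.8 to 5.33 FPKM, while Olig1 and Olig2 had no call. Summed radial glia markers were 4172 to 4614 FPKM in controls and 5556 to 7386 FPKM in cKO, with Nes and Vim higher and Hes5, a Notch target, lower. Of the 2 intermediate progenitor markers tested Neurod1 was higher, from 2.46 to 5.43 FPKM. The ventral telencephalic markers Dlx1, Dlx2 and Gsx2 passed the filter only through their cKO libraries, Dlx2 for example averaging 0.0865 FPKM in controls against 4.19 FPKM. Microglial and blood markers summed to at most 0.594 and 4.26 FPKM. Their part in the changes of Cdon, Gas1 and the targets was not tested.

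**Figure D3:**
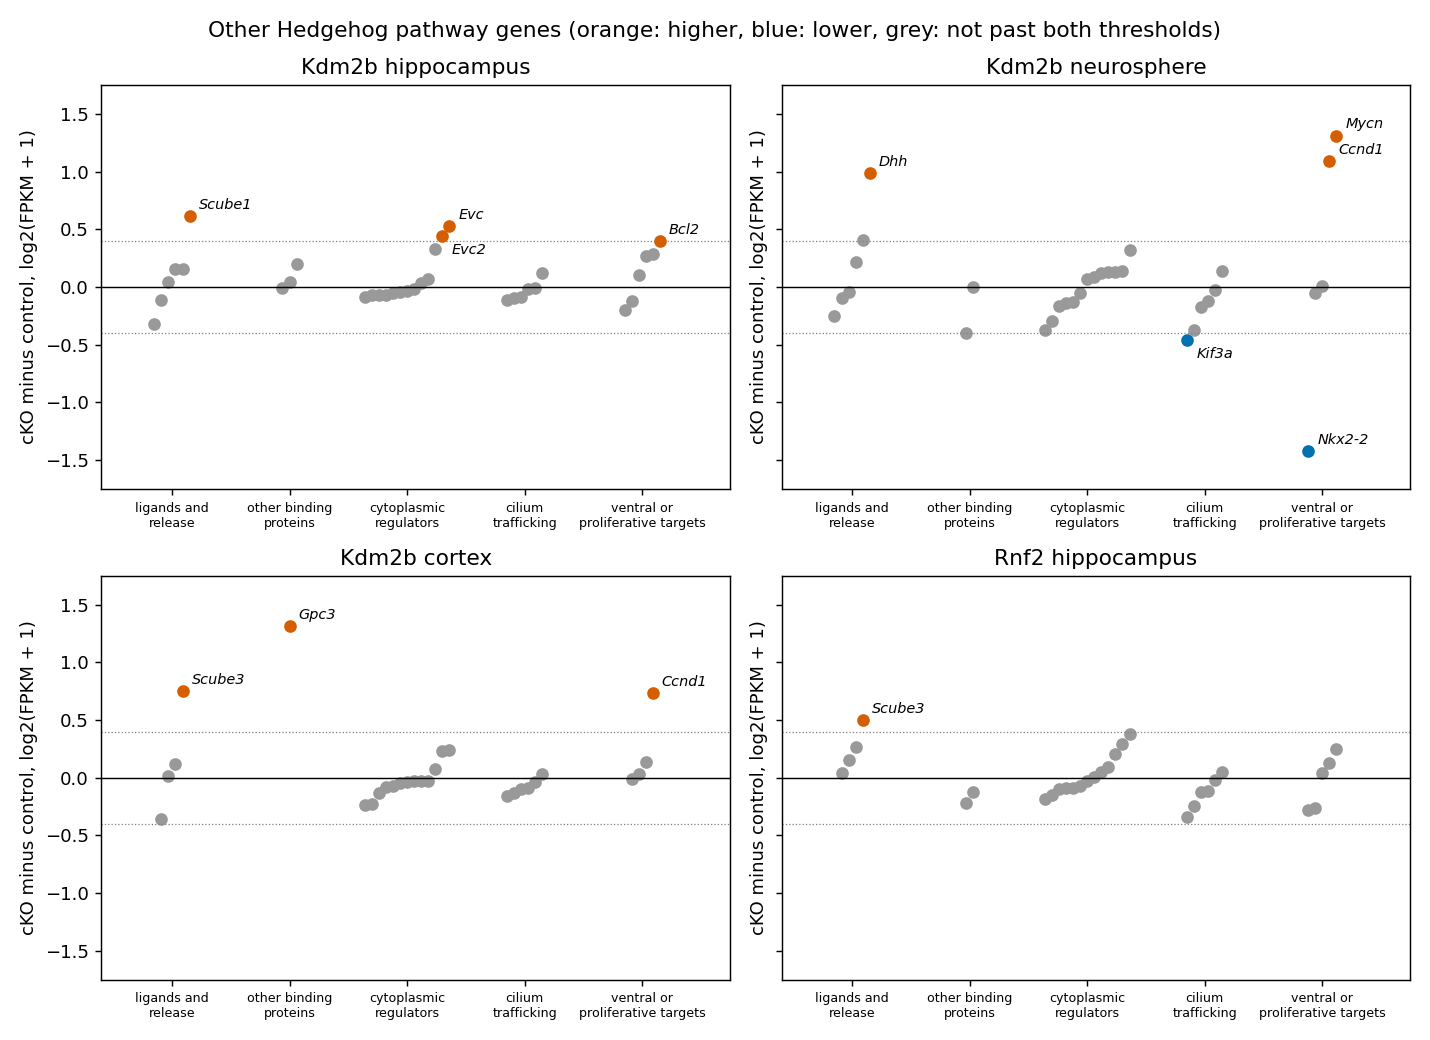
Differences between cKO and control on the log2(FPKM + 1) scale (vertical axes) for the other Hedgehog pathway genes tested, by list (horizontal axes), in the 4 comparisons. Orange and blue points passed both thresholds upward and downward, grey points did not. Only neurospheres have blue points, Nkx2-2 at -1.42 and Kif3a at -0.46.

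In Kdm2b cKO cortices none of the 9 genes was called, while 7.01% of 15691 genes were (742 higher and 358 lower) and 0.427% with the adjusted p. None of the 9 had an unadjusted limma p under 0.05, and limma-voom on the reads recovered from the table called none. The 9 genes rested on 87 (Gli1) to 3898 (Cdon) reads in a library, of 18480515 to 21905224 reads on genes. Boc measured 10.4 and 12.7 FPKM in controls and 15.5 and 13.3 FPKM in cKO, a difference of 0.30 (95% interval -0.02 to 0.62, adjusted p = 0.426). Gli3 measured 3.60 and 4.97 FPKM in controls and 5.90 and 4.80 FPKM in cKO, a difference of 0.27 (95% interval -0.14 to 0.69). Without control library 2, Gli3 (0.46) and Boc (0.44) passed both thresholds, in a fit that assumes the lone control to vary like the cKO libraries. Ptch1 measured 2.22 and 1.99 FPKM in controls and 2.71 and 2.47 FPKM in cKO, a difference of 0.21 (95% interval -0.05 to 0.47).

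Boc, Ptch1 and Smo lay above the controls in both cortical cKO libraries, and 44.8% of all genes had groups that did not overlap. Smo differed by 0.11 (95% interval -0.10 to 0.32), Gli2 by 0.11 (-0.18 to 0.40), Cdon by 0.03 (-0.37 to 0.44) and Sufu by 0.02 (-0.29 to 0.33). Gas1, at 16.7 and 20.7 FPKM in controls and 18.7 and 16.3 FPKM in cKO, differed by -0.09 (95% interval -0.42 to 0.25). Gli1, at 1.18 and 1.21 FPKM in controls, scattered in cKO between 0.887 and 1.49 FPKM. Of 28 other pathway genes tested, Gpc3, Scube3 and Ccnd1 were higher and none was lower, and none held at the adjusted p. Gpc3, a membrane proteoglycan that binds the ligand, rose from 0.965 ± 0.292 to 3.91 ± 0.921 FPKM (log2 difference 1.32, adjusted p = 0.0940). The 7 meningeal and fibroblast markers tested passed the filter only through the same cKO libraries, and the list had a summed level of 1.40 to 2.09 FPKM in controls and 20.9 to 30.0 FPKM in cKO. Summed vessel markers were 48.9 to 49.7 FPKM in controls and 73.3 to 75.4 FPKM in cKO, and summed blood markers 435 to 454 and 623 to 711 FPKM. The part of these tissues in the cortical values was not tested.

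In Rnf2 cKO hippocampi none of the 9 genes was called. Over all 15764 genes, 4.71% were called (451 higher and 291 lower) and 0% with the adjusted p. limma gave 1121 genes at an unadjusted p under 0.05 without the fold threshold, and limma-voom on recovered reads gave 756 at both thresholds and again none of the 9. Gli2 measured 1.90 and 1.64 FPKM in controls and 2.57 and 2.25 FPKM in cKO, from 175 to 292 reads a library. This was the largest difference of the 9, at 0.30 (95% interval -0.10 to 0.70, adjusted p = 0.737), and the groups did not overlap. Ptch1 was the other gene without overlap, at 2.403 and 2.52 FPKM in controls and 2.398 and 2.38 FPKM in cKO, while 38.3% of all genes did not overlap. Gli3 measured 4.50 and 5.08 FPKM in controls and 4.81 and 5.27 FPKM in cKO, a difference of 0.06 (95% interval -0.27 to 0.39). Gas1, at 20.2 and 15.4 FPKM in controls and 16.8 and 17.4 FPKM in cKO, differed by -0.05 (95% interval -0.43 to 0.33).

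Smo (0.11), Sufu (0.09), Gli1 (0.07), Boc (-0.06) and Cdon (-0.08) had overlapping groups in the Rnf2 series, with adjusted p-values of 0.896 to 0.961. Intervals reached 0.51 for Smo, 0.47 for Sufu and 0.59 for Gli1, above their differences in Kdm2b hippocampi (0.46, 0.32 and 0.37). The upper bounds of Gli2 (0.70) and Ptch1 (0.33) were likewise above their hippocampal differences of 0.27 and 0.15. Those of Gli3 (0.39), Gas1 (0.33), Boc (0.35) and Cdon (0.39) were below their hippocampal differences of 0.78, 0.53, 0.52 and 0.46. The hippocampal differences have intervals too, with lower bounds of 0.46, 0.39, 0.26 and 0.28. The test of a difference between the 2 effects, given below, called none of these genes. Scube3 was the only one of 30 other pathway genes called, from 2.38 ± 0.615 to 3.75 ± 0.370 FPKM (adjusted p = 0.679). Libraries of this table held 14654894 to 16334420 reads on genes. Of 7 meningeal markers 4 were lower (summed level 30.8 to 31.0 FPKM in controls and 15.2 to 22.0 FPKM in cKO), and summed choroid plexus markers ranged from 7.73 to 243 FPKM in the cKO libraries. Their part in the Rnf2 values was not tested.

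Whether the cKO effect differed between the hippocampal table and each other table was tested as an interaction of genotype and table. Against neurospheres, 5 of the 8 genes tested differed at an adjusted p under 0.05, and 26.9% of 11075 genes did. The effect on Boc was larger in hippocampi by 0.87 (SE 0.18, adjusted p = 0.00479), and that on Sufu by 0.43 (SE 0.10, adjusted p = 0.0102). Cdon had the larger effect in neurospheres, a difference of -1.55 (SE 0.14, adjusted p = 3.5e-05). These 3 calls held when any of the 10 libraries was left out. After rescaling of each library to an equal FPKM total, the differences on Sufu (0.34, adjusted p = 0.368) and Smo (0.35, adjusted p = 0.335) were not called. Gli3 (0.76, SE 0.22, adjusted p = 0.0242) and Smo (0.44, SE 0.14, adjusted p = 0.0403) also differed, but Gli3 was lost without any 1 of 6 of the libraries and Smo without any 1 of 7. For Gli3 these were hippocampal control 2, hippocampal cKO 1 and 2, both neurosphere controls and neurosphere cKO 2, and for Smo also hippocampal control 1. Control Gli3 averaged 0.593 FPKM in neurospheres and 3.51 FPKM in hippocampi. On the log2(FPKM + 1) scale an equal fold change gives a smaller value at the lower level. Gas1, higher in both tables, differed by -0.10 (95% interval -0.33 to 0.13), and Gli2 by 0.03 (-0.38 to 0.44).

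Against cortices 1 gene of 9 differed, and 1.61% of 10708 genes did. The effect on Gas1 was larger in hippocampi by 0.61 (SE 0.13, adjusted p = 0.0458). This call was lost without any 1 of 9 of the 10 libraries, with values of 0.46 to 0.76, and was kept only without cortical control 1. Gli3 differed by 0.51 (95% interval 0.01 to 1.01, adjusted p = 0.341) and Cdon by 0.42 (0.07 to 0.77, adjusted p = 0.261). Against Rnf2 hippocampi none of the 9 differed by limma at the adjusted p, and 0.683% of 11266 genes did. Gli3, Gas1, Boc and Cdon had an unadjusted p under 0.05 there, and the adjusted p was 0.131 for Gli3 (0.72, SE 0.21), 0.0898 for Gas1 (0.57, SE 0.14), 0.157 for Boc (0.58, SE 0.18) and 0.187 for Cdon (0.54, SE 0.18). A call of 1 gene appeared without hippocampal cKO 3, Rnf2 control 1 or Rnf2 control 2. The 3 tests share the hippocampal libraries.

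**Figure D4:**
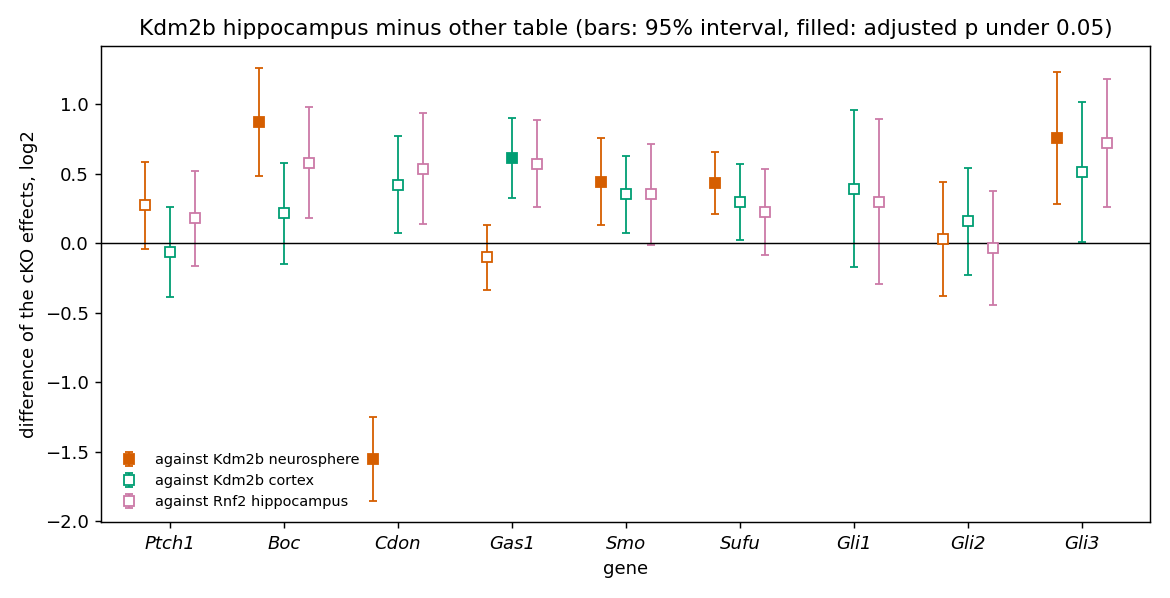
Effect of the cKO in Kdm2b hippocampi minus the effect in each other table, log2 (vertical axis), for the 9 genes (horizontal axis). Bars are 95% intervals and filled squares have an adjusted p under 0.05. Boc (0.87), Gli3 (0.76), Smo (0.44) and Sufu (0.43) are above 0 and Cdon (-1.55) below 0 against neurospheres, and Gas1 (0.61) is above 0 against cortices.

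Likeness of pattern was measured over all 18 libraries as the Pearson correlation of log2(FPKM + 1), taken relative to the control mean of the same table, among 9605 genes tested in all 4. The libraries share tables and controls, so the values are descriptions. Closest to Gli3 were Ltbp3 (r = 0.945), a latent TGF-beta binding protein, the progenitor factor Pax6 (0.923) and Smo (0.912). Closest to Smo were Celsr1 (0.928), Cecr2 (0.913) and Gli3 (0.912), so Gli3 and Smo were in each other's list. Boc was nearest to Sox9 (0.936), a transcription factor of radial glia, which was higher by 0.68 in hippocampi and lower by 0.60 in neurospheres. Cdon was nearest to the replication-linked genes Uhrf1 (0.993), Cdt1 (0.983) and Atad2 (0.981), which rose by 1.26, 1.41 and 0.99 in neurospheres, the table that sets most of the range of Cdon. Gas1 was nearest to Cdh24, Cdk2 (both 0.896) and Mthfd2l (0.891), and Ptch1 to Tbc1d2b (0.871), Brip1os (0.859) and Fzd7 (0.846).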

How the data were processed

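Gene expression was analysed from 4 tables of FPKM, 1 value per gene and library. For hippocampi and neurospheres, the authors trimmed reads with cutadapt, aligned them to mm10 with STAR and computed FPKM with Cufflinks 2.2.1. For the cortical and Rnf2 tables the deposited FPKM values rest on a quantifier not given in the sources used here. In these tables FPKM times gene length was a whole multiple of a fixed step for 100% of values (within 0.05), which gave reads per gene and library totals. Depth is unknown for the other tables. Entries without a gene name were left out, also from the FPKM totals used for rescaling. An entry that joined several gene names was counted for each listed gene that it held.

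Groups were taken from the labels. log2(FPKM + 1) was compared with limma 3.58.1 in R 4.3.3 (moderated test with a mean trend) within each table, over genes averaging 0.5 FPKM or more. The threshold numbers (log2 difference above 0.4, p under 0.05) were taken from the study's methods, with Benjamini-Hochberg adjustment over all genes beside them. The study set these numbers on log2 fold changes from read counts. Here they were set on differences of log2(FPKM + 1), which are smaller for low genes at an equal fold change. The same numbers are therefore a stricter criterion for low genes here, and the calls are not those of the study. limma's interaction of genotype and table compared effects. On simulated data with 200 genes changed by 1 log2 unit, 199 were recovered in the hippocampal design and 194 in each other design. Only genes with a control mean log2(FPKM + 1) above 1 were changed. Recovery of smaller changes, such as the 0.46 to 0.78 of the genes called in hippocampi, was not measured. Tried in turn were a filter of 1 FPKM or none, a pseudocount of 0.1, scaling to the FPKM total or by median ratios, no trend, a replicate block, summed entries, limma-voom on recovered reads, each library left out (a lone library is then assumed to vary like the other group), and other thresholds. A crossed block for neurospheres was added after seeing the data.

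The members and gene lists were chosen with earlier results of these data known. Named were the 9 members, pathway genes past the thresholds or needed to describe a list, Kdm2b and Rnf2, and the 3 genes most like each of Ptch1, Gli3 and the members called in hippocampi. Among the values named for context are cell type markers from fixed lists. 1 pathway gene and 1 marker of those lists are not reported here. Chromatin data of the study were not used here.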

Additional observations from a re-analysis of the deposited data

Results flagged for a closer look

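The effect of the Kdm2b cKO differed between hippocampi and neurospheres for 5 genes by the interaction of genotype and table (limma, adjusted p under 0.05). It was larger in hippocampi by 0.76 log2 units for Gli3, 0.44 for Smo, 0.43 for Sufu and 0.87 for Boc, and smaller by a difference of -1.55 for Cdon. Between hippocampi and cortices it differed for Gas1, by 0.61. The calls on Gli3, Smo and Gas1 were lost when single libraries were left out. Those on Sufu and Smo were lost when the libraries were rescaled to the same FPKM total of named genes. The scale understates changes of low genes, and control Gli3 averaged 0.593 FPKM in neurospheres against 3.51 FPKM in hippocampi.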

How the results depend on the processing

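Precision was limited by 2 or 3 libraries per group, and depth is unknown for the hippocampal and neurosphere tables. The 5 hippocampal calls kept their direction under all 14 alternatives and their call except Smo without control 2, while the adjusted p reached 0.0926 for Boc and 0.0551 for Smo, and 0.0775 for the uncalled Sufu. In neurospheres that of Gas1 reached 0.114. Without the fold threshold 3090 hippocampal, 4669 neurosphere, 2013 cortical and 1121 Rnf2 genes were called, and with the adjusted p 67 cortical and 0 Rnf2 genes. Leaving out 1 library gave 1015 to 1667 cortical genes (highest without control 1), 468 (without cKO 2) to 1580 (without control 2) Rnf2 genes and 0 to 2 cortical members. Members differing from neurospheres numbered 3 with libraries rescaled, and 3 to 5 on leaving out a library. Those differing from cortices were 0 without the filter and 0 without the trend, and 0 to 2 on leaving out a library, and from Rnf2 hippocampi 0 to 1. Same-number correlations were -0.10 to 0.05 in hippocampi, where no library correlated best with its own number. They were -0.28 in neurospheres, -0.05 in cortices and 0.16 in the Rnf2 series. With 2 libraries per group, same-number and other-number correlations differ only in sign, so they cannot decide on pairing. The replicate block called 831, 2993, 1197 and 989 genes in these tables and left 3 members differing from neurospheres and 0 from cortices. The crossed pairing called 3084 neurosphere genes and 2 members. Reversed differences, none of them called, were Sufu (-0.018) and Cdon (-0.0071) in rescaled cortices. On leaving out a library they ranged from -0.11 to 0.15 for Smo in neurospheres. In cortices the ranges were -0.12 to 0.16 for Sufu, -0.17 to 0.24 for Cdon, -0.24 to 0.062 for Gas1 and -0.22 to 0.18 for Gli1. In the Rnf2 series they were -0.15 to 0.30 for Gli1, -0.011 to 0.13 for Gli3, -0.042 to 0.27 for Smo, -0.067 to 0.25 for Sufu, -0.23 to 0.14 for Gas1, -0.15 to 0.028 for Boc and -0.29 to 0.13 for Cdon. The causes of these changes were not tested.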

Other observations

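The hippocampal table held a second, lower entry for Gli3 and for Cdon. That of Gli3 measured 0.779, 0.861 and 0.663 FPKM in controls and 1.27, 0.329 and 0.775 FPKM in cKO, and that of Cdon 1.24, 1.11 and 1.21 FPKM in controls and 1.69, 1.12 and 0.910 FPKM in cKO. For both, the groups overlapped, and adding these entries to the main ones left Gli3 and Cdon called.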
